A study of Mus musculus with 113 samples.

Results

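The subcortical maternal complex is represented here by 7 genes, *Khdc3*, *Nlrp5*, *Tle6*, *Ooep*, *Padi6*, *Zbed3* and *Nlrp4f*, out of 24006 genes listed in each expression file. They were taken by name as members or partners of the complex in mouse. *Khdc3* was singled out because its FPKM (fragments mapped to a gene, scaled by its length and by the mapped total of the library) was over 100-fold lower after *Nr5a2* knockdown (KD) at the 8-cell (8C) stage than in the negative control (NC). *Khdc3* was thus chosen by its FPKM in that contrast, which is described without a test. Expression files of 92 libraries were used, and the other 21 of the 113 samples were not analysed here.

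The study knocked down orphan and other nuclear receptors in mouse preimplantation embryos, from C57BL/6N females mated with PWK/PhJ males, by injecting siRNA into zygotes. Small pools of embryos were sequenced with Smart-seq2, with 2 libraries per group. At 4C and 8C, siRNAs against *Nr5a2*, *Rarg*, *Nr1h3* and *Nr2c2* at 5 µM each (4KD, labelled Nr5a2_Rarg_Nr1h3_Nr2c2_KD) were compared with 20 µM control siRNA (4NR_NC). At 8C, every combination of 3 of these siRNAs (3KD) was compared with 15 µM control siRNA (3NR_NC), and each siRNA alone at 5 µM with 5 µM control siRNA (1NR_NC). At 2C, *Nr5a2* siRNA and control siRNA were both given at 20 µM. In a separate experiment, single embryos at 2C and 8C had received base editor mRNA alone (BE, n = 8 per stage), sgRNA against *Nr5a2* alone (sg, n = 8) or both (BE_sg, n = 14), each at 100 ng per µl. How far each embryo was edited was not analysed here, and every control embryo had itself been injected.

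The complex is assembled in the growing oocyte and lies beneath the cortex of the egg and early blastomeres, where it is required for the first cleavage divisions. NLRP5 (MATER), OOEP (FLOPED) and TLE6 form its core, and KHDC3 (FILIA), a KH-domain protein also linked to genome stability in early embryos and stem cells, attaches to it. PADI6, a catalytically divergent peptidylarginine deiminase, is needed for the cytoplasmic lattices of the oocyte, ZBED3 is a BED-type zinc finger protein that takes part in placing the spindle, and NLRP4F belongs to the same NLRP family as NLRP5. Their transcripts are made in the oocyte, and maternal transcripts of this kind are largely cleared around the 2C stage. NR5A2 is an orphan nuclear receptor that binds DNA as a monomer at an extended half-site.

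In the mm9 build used for these files, *Khdc3* lies on the forward strand at chr9:72949643-72952250 (GENCODE vM1, ENSMUSG00000092622.1, where it carries the older name 2410004A20Rik). *Ooep*, a KH-domain relative, lies on the same chromosome at chr9:78223916-78226532. The other members are spread over chromosomes 4 (*Padi6*), 7 (*Nlrp5*), 10 (*Tle6*) and 13 (*Zbed3* and *Nlrp4f*). A further annotated gene, Gm20509, overlaps the end of *Khdc3* on the same strand and is not among the listed genes, so reads from the shared stretch cannot be told apart.

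Since *Nr5a2* was the perturbed gene, the 250 bases before each annotated start of the 7 members, taken from RefSeq (GRCm38.p6), were searched on both strands for the letters of an NR5A2 half-site, CAAGGTCA or CAAGGCCA. Of 11 windows, 1 held a match, that of *Khdc3*, with CAAGGCCA on the reverse strand from 208 to 201 bases before the start. Over all genes, 1077 of 32851 such windows (3.28%) held at least 1 of these motifs. The match lies at mm9 chr9:72949997-72950004, inside a UTR exon of a longer annotated transcript, and is shown in capitals (as read on the forward strand) with its flanks, mm9 chr9:72949986-72950015 or GRCm38 chr9:73102179-73102208.
Khdc3 upstream match: tgagattagatTGGCCTTGaagtcaggtaa
This match in letters is a description of the sequence and does not show that a factor binds there.

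The summed FPKM of a library ranged from 83392 to 556462, and between 5472 and 11921 genes reached an FPKM of 1. The single embryos bore column names of 2 sets, eBE (31 embryos) and BE4 (26 embryos), in both BE_sg and control embryos. The sets were unevenly spread at 2C, where no sg embryo was of the BE4 set. The sources used here do not say whether these names stand for sequencing runs or for different editors. The expression columns of the remaining 3 embryos were named as 4-cell embryos although their samples were labelled 2C sg (replicate 8) or 8C BE_sg (replicates 13 and 14), and the main results at 8C are given with and without them. *Nr5a2* itself was at 27.1 to 50.2 FPKM in the 14 pools of 8C embryos without *Nr5a2* siRNA and at 3.90 to 12.8 in the 10 with it. At 2C it was at 19.4 and 24.3 FPKM in NC and at 2.72 and 6.13 in KD. In single 8C embryos, *Nr5a2* FPKM had a median of 43.3 (7.98 to 81.3) in BE and sg and of 47.9 (28.8 to 108) in BE_sg. The siRNA groups did not overlap, whereas the transcript level did not separate BE_sg from its controls. Per the paper, the editing introduces a stop codon, and 8C embryos had edited *Nr5a2* reads and lost NR5A2 protein. The transcript level is thus no measure of the editing.

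Between 2C and 8C, *Khdc3* and the other members moved in opposite directions. In the 16 control embryos (BE and sg) per stage, *Khdc3* had a median of 3.23 FPKM at 2C (0 to 23.2) and 212 FPKM at 8C (14.4 to 435). The log2 difference, on the log2(FPKM + 1) scale, was 5.09 (SE 0.489, limma adjusted p = 5.37e-14). *Khdc3* thus rose, the other 6 members fell, and 72.5% of all genes tested passed the same threshold in one direction or the other.

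The 3 core genes and *Nlrp4f* fell with the stage. *Nlrp5* went from a median of 27.4 FPKM to 0.697 (log2 difference -3.78), *Ooep* from 51.4 to 2.46 (-3.58), and *Tle6* from 20.2 to 2.59 (-2.64). *Nlrp4f* went from 25.6 to 0.246 FPKM (-3.99). *Zbed3* had the steepest decrease of the 7, from a median of 284 FPKM (14.3 to 3188) to 1.56 (log2 difference -6.74). *Padi6* had the shallowest, from 40.0 to 10.2 FPKM (-1.92, limma adjusted p = 2.4e-10). In all, 1 member rose and 6 fell, against a median log2 difference of -0.31 over all genes. FPKM is a share of a library's transcripts, and total RNA per embryo was not measured.

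**Figure D1:**
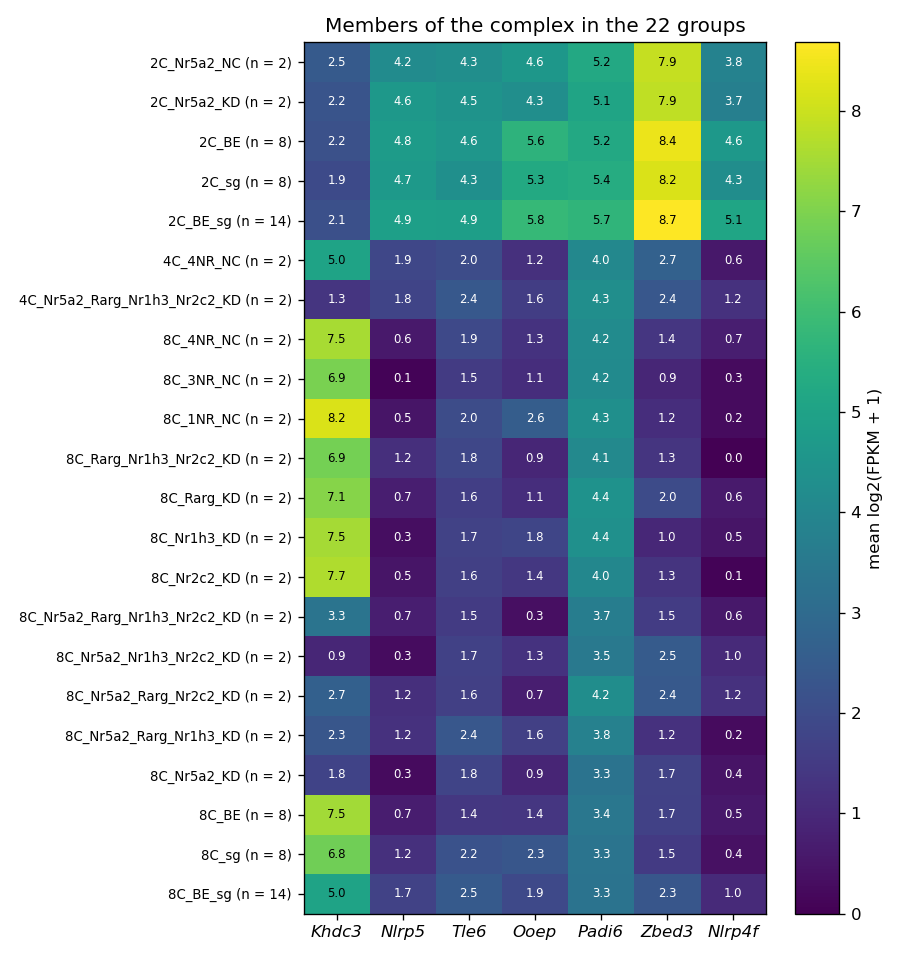
Mean log2(FPKM + 1) of each member (columns) in each of the 22 groups (rows, with n libraries). *Khdc3* is low in every 2C group and high in the 8C groups that received no *Nr5a2* siRNA, while the other 6 members are highest at 2C.

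The order of the members by level was accordingly turned over. At 2C the order of medians was *Zbed3*, *Ooep*, *Padi6*, *Nlrp5*, *Nlrp4f*, *Tle6* and *Khdc3*. Within embryos, the mean log2 gap to the next gene exceeded 1 SD of that gap only between *Zbed3* and *Ooep*, *Padi6* and *Nlrp5*, and *Tle6* and *Khdc3*. At 8C the order was *Khdc3*, *Padi6*, *Tle6*, *Ooep*, *Zbed3*, *Nlrp5* and *Nlrp4f*, with gaps beyond 1 SD between *Khdc3* and *Padi6* and between *Padi6* and *Tle6*. The other neighbours did not differ beyond their spread. *Khdc3* made up a median of 0.734% (0 to 3.80%) of the summed FPKM of the 7 genes at 2C and of 91.1% (25.5 to 97.8%) at 8C. Thus at 8C most of the transcript of the complex, per length, was *Khdc3*.

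For *Khdc3*, the NC pools at 4C lay between the 2C and 8C medians, with a wide spread. *Khdc3* was at 93.4 and 10.4 FPKM in the 4C NC pools and at 117 and 297 in the 8C NC pools. Both stages were of the same experiment (log2 difference 2.51, SE 1.06, limma adjusted p = 0.664). Of the other members, *Nlrp5* was at 1.68 and 3.91 FPKM in the 4C NC pools and *Zbed3* at 2.47 and 11.2 FPKM. *Ooep* (0.878 and 1.87 FPKM), *Padi6* (13.5 and 17.8), *Tle6* (3.81 and 2.37) and *Nlrp4f* (0.128 and 0.913) overlapped their 8C NC values. None of the 7 members passed the threshold between 4C and 8C, as was true of 0% of the genes tested (776 at an unadjusted p under 0.05, 2 of them members, *Khdc3* and *Nlrp5*).

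Knockdown of all 4 receptors was then compared with NC at both stages. At 4C, *Khdc3* was listed at 0 in one 4KD pool and was at 5.41 FPKM in the other, against 93.4 and 10.4 in NC. Its log2 difference was -3.70 (SE 1.06, limma adjusted p = 0.782, 0% of genes called and 610 at an unadjusted p under 0.05). *Nr5a2* differed between these 4KD pools, at 3.98 FPKM in the pool with *Khdc3* at 0 and 17.6 in the other. At 8C, *Khdc3* was at 8.37 and 10.0 FPKM in 4KD against 117 and 297 in NC, a log2 difference of -4.20 (SE 1.06, limma adjusted p = 0.328). Again 0% of genes were called in this comparison (784 at an unadjusted p under 0.05), and in 19.2% of all genes tested both 4KD pools lay below both NC pools. The separation of the *Khdc3* values was therefore not rare by order alone, and the size of the difference did not pass the test.

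The other 6 members gave smaller differences in 4KD, none of which passed the test at either stage. At 8C they ranged from -0.91 (*Ooep*, 0.818 and 2.14 FPKM in NC against 0 and 0.608) to 0.16 (*Zbed3*). *Ooep*, *Tle6* (2.67 and 2.90 against 2.13 and 1.63) and *Nlrp4f* (0.720 and 0.623 against 0.460 and 0.522) had both 4KD pools below both NC pools, as *Khdc3* did. *Padi6* was at 24.3 and 12.3 FPKM in NC and at 13 and 10.7 in 4KD, which overlapped, as did *Nlrp5* and *Zbed3*. At 4C they ranged from -0.34 to 0.69. The difference between the 4KD effects at 8C and 4C was -0.51 for *Khdc3* (SE 1.51, limma adjusted p = 1.00), and 0% of genes were called (259 at an unadjusted p under 0.05). An unequal effect at the stages was not detected, with a 95% interval from -3.90 to 2.88.

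The 3KD series separated the part of each siRNA, since each combination leaves out one receptor. *Khdc3* was at 96.0 and 152 FPKM in 3NR_NC and at 91.8 and 149 when *Nr5a2* was the receptor left out (Rarg_Nr1h3_Nr2c2_KD). With *Nr5a2* siRNA present, it was at 0.825 and 1.02 FPKM in Nr5a2_Nr1h3_Nr2c2_KD, 0.215 and 31.6 in Nr5a2_Rarg_Nr2c2_KD, and 3.58 and 4.53 in Nr5a2_Rarg_Nr1h3_KD. All 6 pools with *Nr5a2* siRNA thus lay below all 4 pools without it (exact two-sided permutation test, p = 0.00952, the smallest this design allows). Of all genes tested, 2.99% showed this order of pools. In the column names, replicate 1 bore library numbers 865 to 869 and replicate 2 bore 1225 to 1230. The sources used here do not say what these ranges stand for, and the permutation test did not use them. The order held in each: in replicate 1, 0.215 to 3.58 against 91.8 and 96.0 FPKM, and in replicate 2, 1.02 to 31.6 against 149 and 152.

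By limma across all genes, the mean of the 3 combinations with *Nr5a2* siRNA differed from the combination without it by -4.91 on the log2 scale for *Khdc3* (SE 0.904, adjusted p = 0.0539), above the threshold of 0.05. In this comparison 0.282% of genes were called (30 genes, 0 to 2 with any 1 pool left out). With the replicate number as a block, the same difference had a limma adjusted p of 0.00526 and passed. Pools with the same replicate number, and so the same range of library numbers, deviated together (correlations of 0.278 to 0.513 over the 10 pairs of groups). Leaving out either Nr5a2_Rarg_Nr2c2_KD pool brought *Khdc3* under the threshold, with a log2 difference of -5.70 and an adjusted p of 0.00883 without the pool at 31.6 FPKM. Over all 8 single left-out pools the adjusted p ran from 0.00883 to 0.468. Against NC, the differences were -5.99 for Nr5a2_Nr1h3_Nr2c2_KD (limma adjusted p = 0.134, 0.0565% of genes called), -4.28 for Nr5a2_Rarg_Nr2c2_KD (0.309, 0.00941%) and -4.60 for Nr5a2_Rarg_Nr1h3_KD (0.252, 0% called and 783 at an unadjusted p under 0.05). These share the same 2 NC pools. With the block, the first and the last of the 3 passed (limma adjusted p = 0.0136 and 0.0366). Rarg_Nr1h3_Nr2c2_KD gave -0.04 (SE 1.11, 95% interval -2.48 to 2.39, limma adjusted p = 1, with 0% of genes called and 251 at an unadjusted p under 0.05). The interval is wide, so no difference was resolved when *Nr5a2* siRNA was absent.

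No other member behaved this way in 3KD. *Padi6*, the member nearest to *Khdc3* in level at 8C, was at 8.88 to 22.5 FPKM in the 6 pools with *Nr5a2* siRNA and 12.5 to 22.9 in the 4 without. *Zbed3* was at 0.597 to 17.3 FPKM with and 0.343 to 3.56 without, and *Tle6* at 1.15 to 8.00 with and 1.17 to 2.91 without. The ranges of all of the other 6 members overlapped, and their exact permutation p over the 6 and 4 pools ran from 0.162 (*Nlrp4f*) to 0.676 (*Tle6*). By limma their log2 differences between 3KD with and without *Nr5a2* siRNA ran from -0.26 (*Nlrp5*) to 0.83 (*Nlrp4f*), and 0 of 6 passed the threshold, adjusted or unadjusted. For *Nlrp5* the sign depended on the pools compared, with a mean log2 difference of 0.28 when the NC pools were added to those without *Nr5a2* siRNA. In bulk pools, fewer cells that express a gene and less RNA per cell cannot be told apart.

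**Figure D2:**
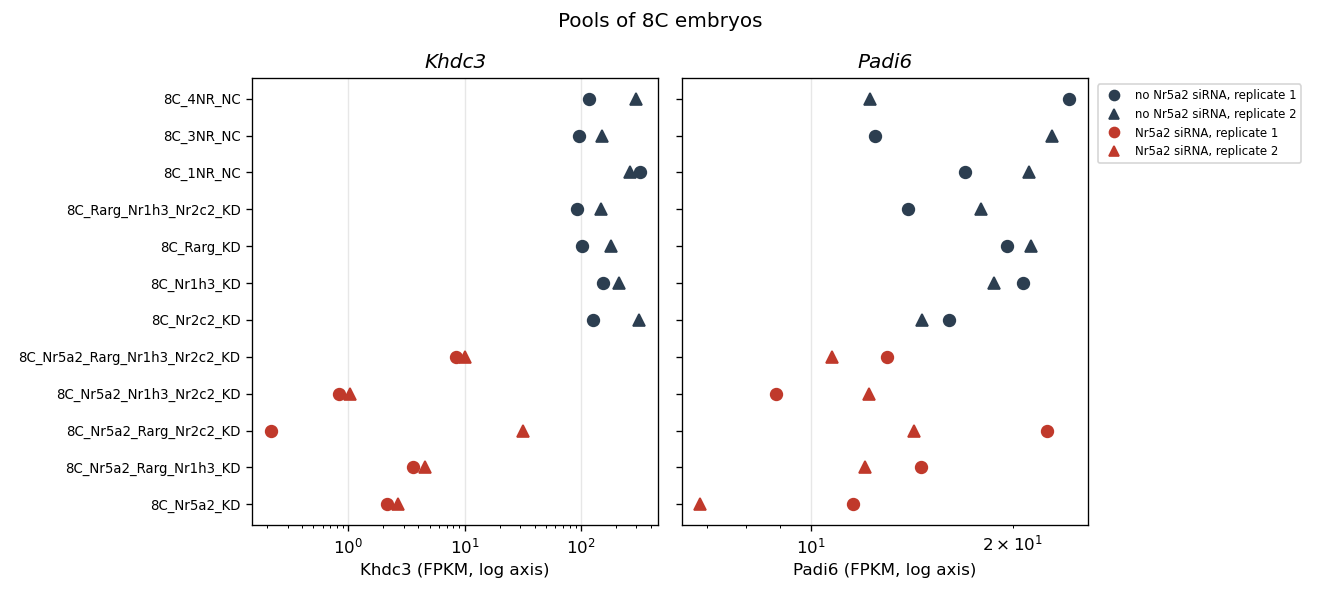
FPKM (log axes) of *Khdc3* and *Padi6* in each pool of 8C embryos, 2 pools per group, coloured by whether *Nr5a2* siRNA was injected. *Khdc3* lies between 0.215 and 31.6 in the 10 pools with *Nr5a2* siRNA and between 91.8 and 320 in the 14 without. The *Padi6* values overlap. These pools include the knockdown of *Nr5a2* alone and its NC, the contrast by which *Khdc3* was chosen, so their separation is no separate evidence. In the remaining pools *Khdc3* lies between 0.215 and 31.6 with *Nr5a2* siRNA and between 91.8 and 317 without.

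Single knockdowns at 8C hold the contrast by which *Khdc3* was chosen, and its values there are descriptive. *Khdc3* was at 320 and 264 FPKM in 1NR_NC and at 2.14 and 2.67 in Nr5a2_KD, a ratio of means of 121. Of the 5626 genes with a mean of at least 5 FPKM in NC and above 0 in KD, 3 exceeded 100-fold. *Klf13* (183-fold) was the next inside the limit and *Prl3b1* (99.6-fold) lay just outside it, while 12 genes were listed at 0 in both KD pools. In the other single knockdowns *Khdc3* was at 102 and 183 FPKM (Rarg_KD), 155 and 213 (Nr1h3_KD) and 126 and 317 (Nr2c2_KD). Both Rarg_KD and both Nr1h3_KD pools lay below both NC pools, and 1 Nr2c2_KD pool did. The share of all genes in this order was not counted in these comparisons. In 8C 4KD, also with 2 pools against 2, it was 19.2%. The NC pools of the 4KD and 3KD experiments at 8C had *Khdc3* from 96.0 to 297 FPKM. The Rarg_KD and Nr1h3_KD values lay within that range. Calls by limma covered 2.75% of genes for Nr5a2_KD (279 genes, or 29 and 6 without NC replicate 1 and 2), 0.00984% for Rarg_KD, 0.00984% for Nr1h3_KD and 0.0787% for Nr2c2_KD.

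In the same Nr5a2_KD pools, *Ooep* was at 0.721 and 1.02 FPKM against 4.15 and 5.82 in NC, and *Padi6* at 11.6 and 6.83 against 17.0 and 21.1. Both genes thus also lay lower in this contrast, without overlap and far less than *Khdc3*. *Ooep* was, however, below both NC pools in Rarg_KD (0 and 3.87 FPKM), Nr1h3_KD (1.49 and 3.995) and Nr2c2_KD (2.32 and 1.095) as well. *Padi6* was below both NC pools in Nr2c2_KD (16.05 and 14.64 FPKM) but not in Rarg_KD or Nr1h3_KD. For neither gene was this order particular to *Nr5a2* siRNA. The share of all genes in this order was not counted here. In 8C 4KD, also with 2 pools against 2, it was 19.2%. In 3KD, where *Nr5a2* siRNA was absent from 4 pools and present in 6, *Ooep* (0 to 2.59 against 0.326 to 3.05 FPKM) and *Padi6* overlapped, whereas in 8C 4KD *Ooep* was separated and *Padi6* was not. *Tle6* (1.99 and 4.48 in NC, 2.50 and 2.43 in KD) overlapped, *Zbed3* was at 0.687 and 1.92 FPKM in NC and 2.00 and 2.52 in KD, and *Nlrp5* and *Nlrp4f* were under 1 FPKM in these 4 pools. Of the 4 members other than *Khdc3* that passed the level filter in this experiment, 0 were called in Rarg_KD, Nr1h3_KD or Nr2c2_KD by limma, adjusted or unadjusted.

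At 2C, where *Nr5a2* was reduced but *Khdc3* had not reached its 8C level, no member differed between the groups beyond the spread. *Khdc3* was at 4.28 and 4.74 FPKM in NC and at 2.95 and 4.71 in KD (log2 difference -0.21, SE 0.467, limma adjusted p = 0.957, 95% interval -1.32 to 0.89). *Zbed3*, the most abundant member per length, was at 299 and 199 FPKM in NC and 195 and 277 in KD. The other 6 members differed by -0.30 to 0.44 on the log2 scale, with 0 passing by limma, adjusted or unadjusted, in a comparison where 0.0167% of genes were called. They were thus present at 2C in both groups, and transcript left from the oocyte and newly made transcript cannot be told apart here. In the column names, NC replicate 1 was of another library series (HXY 743) than the other pools. NC replicate 2 and both KD pools were ZZQ 83 to 85. The part of this in the spread was not tested.

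The base editing experiment used another way to perturb *Nr5a2*, and one embryo per library. At 8C, *Khdc3* had a median of 61.9 FPKM in BE_sg (0.596 to 166, n = 14), 240 in BE (19 to 435, n = 8) and 187 in sg (14.4 to 396, n = 8). The mean log2(FPKM + 1) was 5.05 ± 1.95 (SD) in BE_sg and 7.14 ± 1.61 in the 16 controls, and 4 BE_sg embryos lay below the lowest control. The difference of -2.09 gave p = 0.00306 (two-sided permutation test, 100000 resamples), while limma across all genes gave an adjusted p of 0.0672 (SE 0.506, with 0.146% of genes called). *Khdc3* was thus lower in BE_sg by the test of this one gene and did not pass the threshold across all genes. Without the embryos with 4-cell names, the 12 BE_sg embryos ranged from 5.87 to 166 FPKM, with a median of 72.9. The difference was then -1.52 (permutation p = 0.0161, limma adjusted p = 0.298), with 2 embryos below the lowest control.

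The sets of column names differed in level, and the comparison was repeated within each. In the eBE set, 6 BE_sg embryos were at 71.7 to 166 FPKM and 8 controls at 155 to 435, with 5 of the 6 below the lowest control (difference -1.53, exact permutation p = 0.00133). In the BE4 set, 6 BE_sg embryos were at 5.87 to 74.1 FPKM and 8 controls at 14.4 to 311, with 2 below the lowest control (difference -1.50, exact permutation p = 0.108). The sizes in the 2 sets were alike, and the BE4 set by itself did not pass the threshold.

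Among the other members at 8C, *Nlrp5* had a median of 1.96 FPKM in BE_sg and 0.697 in the controls (difference 0.77 on the log2 scale, permutation p = 0.0168), and *Tle6* 4.69 against 2.59 (0.64, p = 0.0356). Without the embryos with 4-cell names neither passed (0.56, permutation p = 0.0703, and 0.48, p = 0.106). Neither passed the threshold across all genes (lowest limma adjusted p of the 6 members 0.359), and within sets *Nlrp5* gave 0.82 in eBE (exact permutation p = 0.03) and 0.29 in BE4 (0.537). *Padi6* (difference -0.08, permutation p = 0.773) and *Ooep* (0.06, p = 0.872) had the smallest differences, and *Zbed3* (0.74, p = 0.0965) and *Nlrp4f* (0.55, p = 0.0553) did not pass. Thus 7 permutation tests were made at 8C, of which 3 gave p under 0.05, with 1 lower and 2 higher in BE_sg. Without the embryos with 4-cell names 1 of 7 did, *Khdc3*.

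At 2C, *Khdc3* had a median of 3.61 FPKM in BE_sg (1.36 to 7.68) and 3.23 in the controls, with a log2 difference of 0.08 (SE 0.506, 95% interval -0.93 to 1.09, limma adjusted p = 0.958). Over the 7 members at 2C the permutation p ran from 0.0513 (*Padi6*, 0.39 higher) to 0.824 (*Khdc3*), and 0 members passed by limma, adjusted (1.25% of all genes) or unadjusted (15.4% of all genes). The change in the BE_sg effect from 2C to 8C was -2.17 for *Khdc3* (SE 0.716, limma adjusted p = 0.279, 0.0385% of genes called). *Khdc3* was thus lower in BE_sg by the permutation test at 8C, where the controls expressed it highly, and the difference between the stages did not pass the threshold.

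**Figure D3:**
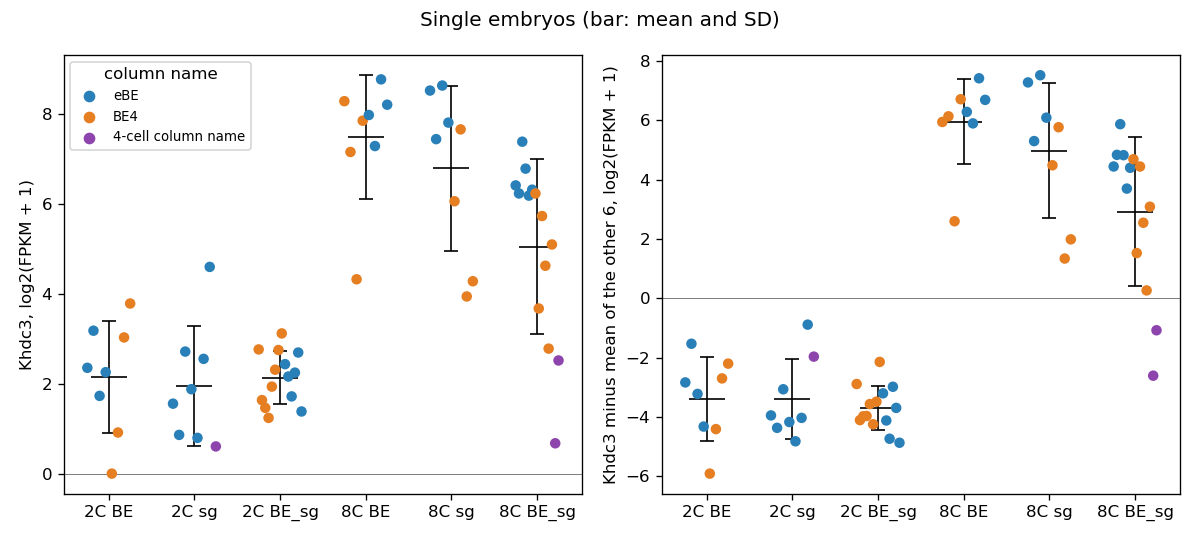
Single embryos of the base editing experiment, with *Khdc3* as log2(FPKM + 1) on the left and *Khdc3* minus the mean of the other 6 members on the right. Each point is 1 embryo coloured by column name, and bars give the mean and SD. The 8C BE_sg embryos lie lower than BE and sg on both axes, and the embryos with 4-cell names are among the lowest.

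To set *Khdc3* against the complex within the same library, the mean log2(FPKM + 1) of the other 6 members was subtracted from that of *Khdc3*. In 3KD this difference was 0.18 ± 2.05 (SD, n = 6) with *Nr5a2* siRNA and 5.45 ± 0.39 (n = 4) without (exact two-sided permutation test, p = 0.00952). In 8C BE_sg embryos it was 2.92 ± 2.51 (n = 14) against 5.46 ± 1.91 in the 16 controls (two-sided permutation test, p = 0.0037), or -1.75 lower without the embryos with 4-cell names (p = 0.0179). It differed by -1.88 in the eBE set (exact permutation p = 0.00133) and by -1.61 in the BE4 set (exact permutation p = 0.148). As a share of the summed FPKM of the 7 genes, *Khdc3* held 80.4 to 86.0% in the 3NR pools without *Nr5a2* siRNA and 0.433 to 63.6% in those with it, and a median of 72.3% in 8C BE_sg (0.881 to 91.7%). The gap between *Khdc3* and its partners was thus smaller in both perturbations. It did not pass in the BE4 set by itself or with sg alone as the control (-2.05, permutation p = 0.0637). In the 3NR pools without *Nr5a2* siRNA, mean log2(FPKM + 1) was 0.13 for *Nlrp4f*, 0.63 for *Nlrp5* and 1.02 for *Ooep*. It was 1.13 for *Zbed3*, 1.68 for *Tle6* and 4.12 for *Padi6*. Genes this low could not fall as far as *Khdc3*. The subtraction therefore largely repeats the *Khdc3* test and does not show a change apart from the complex.

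**Figure D4:**
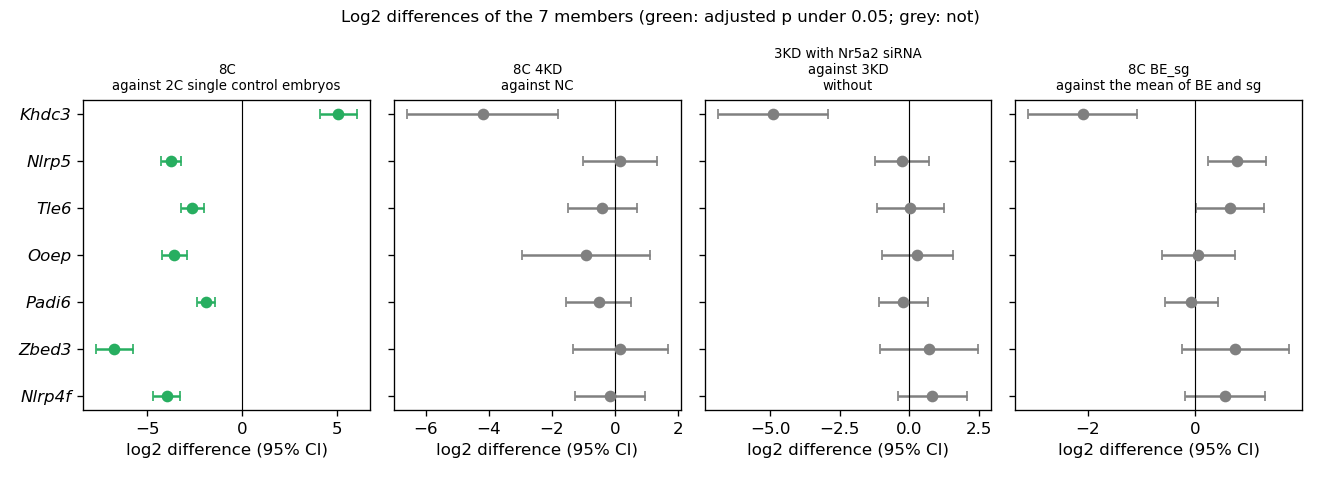
Log2 differences with 95% intervals (limma, log2(FPKM + 1)) of the 7 members in 4 comparisons, green where the adjusted p was under 0.05. Between 8C and 2C all 7 are green, with *Khdc3* alone above 0, and in the perturbations the *Khdc3* intervals lie below 0 without passing the adjusted threshold.

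Markers of other stages and cell types were measured in the same libraries. In 3KD the summed FPKM of 6 oocyte markers was 84.6 to 179 with *Nr5a2* siRNA and 19.1 to 55.7 without, with 2 of the 6, *Zp3* (77.1 to 172 against 11.8 to 49.8 FPKM) and *Zp2* (1.51 to 3.94 against 0.148 to 0.599), higher without overlap. *Zp1*, *Gdf9*, *Bmp15* and *Mos* overlapped. Markers of the 2C stage summed to 3.95 to 78.1 with and 1.97 to 19.9 without, trophectoderm markers to 19.8 to 117 and 15.1 to 54.2, pluripotency markers to 39.2 to 137 and 42.2 to 104, and cumulus markers to at most 0.0642. Of the pluripotency markers, *Nanog* was lower without overlap (3.29 to 9.34 FPKM with against 13.7 to 24.7 without, limma log2 difference -1.60, adjusted p = 0.248), while *Pou5f1*, *Sox2* and *Esrrb* overlapped. Of the blood markers, *Hba-a1* was at 42.6 to 185 FPKM with and 12 to 24.5 without, while *Hbb-b1* and *Ptprc* were listed at 0. Of all genes tested, 2.99% had all 6 pools with *Nr5a2* siRNA below the 4 without. The share with all 6 above was not counted, so how common the order of *Zp3*, *Zp2* and *Hba-a1* is was not measured. The part of these markers in the *Khdc3* result was not tested.

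In 8C BE_sg embryos the oocyte markers had a median sum of 65.9 (19.2 to 231) against 27.5 (11.4 to 137) in the controls, and 0 of the 6 were separated between the groups. The 2C markers had a median sum of 8.60 (0.870 to 338) against 6.58 (0.443 to 50.0), the pluripotency markers 170 (30.5 to 263) against 211 (22.4 to 366), and the trophectoderm markers 62.5 (2.37 to 146) against 31.5 (4.14 to 97.1). Without the embryos with 4-cell names, the BE_sg medians were 55.4 for the oocyte, 7.96 for the 2C, 179 for the pluripotency and 70.0 for the trophectoderm markers. *Nanog* had a median of 3.94 FPKM in BE_sg against 9.91 in the controls and fell by limma (log2 difference -1.40, adjusted p = 0.0403), but did not pass without those embryos (-1.35, adjusted p = 0.162). Of the embryos with 4-cell names, 8C BE_sg replicate 13 had *Khdc3* at 0.596 FPKM and a 2C marker sum of 197, and replicate 14 had *Khdc3* at 4.72 and an oocyte marker sum of 231. The part of developmental delay in these values was not tested.

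Relatives of the members and other maternal genes gave a background for the change with stage, in which 28.9% of all genes tested were called higher and 43.6% lower at 8C. Of 4 KH-domain relatives, 1 rose from 2C to 8C, *Dppa5a*, a KH-domain gene of pluripotent cells (log2 difference 3.37), and 1 fell, *Khdc1b* (-4.39). *Khdc1c* was at -0.01. Of the 10 oocyte *Nlrp* genes tested outside the complex, 10 fell, among them *Nlrp14* (-4.05), *Nlrp9c* (-3.79) and *Nlrp9a* (-3.52). Of 18 maternal-effect and oocyte genes, 16 fell, for example *Oosp1*, which encodes an oocyte-secreted protein (-6.94), and *Gdf9*, an oocyte growth factor (-4.59), and 1 rose, *Dppa3*, which protects the maternal genome from demethylation (2.2). Of 9 tested members of the *Padi*, *Tle* and *Zbed* families, 2 rose and 5 fell, with *Tle4*, a Groucho-type corepressor, at 1.81, *Zbed4* at -0.77 and *Zbed5* at 0.09.

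None of these relatives was called by limma in 3KD (0 of 27 tested, and 2 at an unadjusted p under 0.05, against 10.1% of all genes) or in 8C BE_sg (0 of 41, and 11 unadjusted, against 7.51% of all genes). Without the embryos with 4-cell names the count in 8C BE_sg was 8 of 41 unadjusted, against 5.36%. In 8C BE_sg the 18 maternal genes had a median log2 difference of 0.70 against 0.04 over all genes, with *Gdf9* at 1.84 (adjusted p = 0.119) and *Oosp1* at 1.81 (adjusted p = 0.143). Of these 18, 2 were below 0 and none passed. Without the embryos with 4-cell names their median was 0.46, with 3 below 0. At 2C, 3 of these 18 genes, named after their values were seen, rose in BE_sg by limma, *Gdf9* (2.09, adjusted p = 0.0202), *Zar1* (1.61, 0.0146) and *Zar1l* (1.23, 0.0463), where 1.25% of all genes were called. None of the 3 was called when only the 2C embryos were fitted (1 gene called in all, which was lower) or within either set of column names (0 genes called).

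The genes measured beside *Khdc3* on chromosome 9 gave smaller differences than *Khdc3* in 4KD, 3KD and BE_sg at 8C. *Rab27a*, a small GTPase of vesicle transport that ends 4244 bases upstream, differed by 0.39 in 3KD (limma adjusted p = 0.887) and by -0.46 in 8C BE_sg. *Rsl24d1*, a ribosome assembly factor 8983 bases downstream, differed by -0.27 in 3KD (limma adjusted p = 0.871) and -0.01 in 8C BE_sg, at mean levels of 210 and 189 FPKM in the 3NR pools without and with *Nr5a2* siRNA. Of the other neighbours measured in 3KD, *Pigb* (-1.18), *Wdr72* (-0.72) and *Unc13c* (-0.62) lay lower, and *Dyx1c1* (0.40) and *Ccpg1* (0.13) higher. None of the measured neighbours was called by limma in 4KD, 3KD or BE_sg at 8C, adjusted or unadjusted. *Khdc3* itself was called there only unadjusted.

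Across the 22 groups, the genes whose mean log2(FPKM + 1) followed *Khdc3* most closely by Pearson correlation, of 9180 genes, were *Creg1* (0.946), *Got1l1* (0.942), *S1pr2* (0.941), *Fdx1* (0.936) and *Bok* (0.925). Over the 12 groups of 8C pools alone (7097 genes) they were *Plcd1* (0.983), *Mpc1* (0.980), *Fam214a* (0.977), *Tmigd1* (0.975) and *Smarcd2* (0.975). The lists had no gene in common. Group means share their stage, experiment and library depth, so these values describe likeness only.

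Among themselves the other 6 members correlated at 0.815 to 0.987 over the 22 groups (15 pairs), a range set largely by the 2C and 8C groups. With *Khdc3* the same values were -0.582 to -0.296 (6 pairs). After each group's mean was removed, over the 60 single embryos, they were 0.0875 to 0.671 among the 6 and -0.321 to -0.0315 with *Khdc3*. All 15 pairs of the other members were thus above 0 over these embryos, and all 6 pairs with *Khdc3* were below 0. The 3 embryos with 4-cell names were included, and differences between the sets of column names were not removed. Over the 12 groups of 8C pools alone, the sign was mixed. *Padi6* (0.785) and *Ooep* (0.445) correlated with *Khdc3* above 0. *Tle6* (-0.0668), *Nlrp5* (-0.181), *Nlrp4f* (-0.503) and *Zbed3* (-0.637) lay below 0. These groups include the contrast by which *Khdc3* was chosen.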

How the data were processed

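The deposited values were FPKM per gene and library, made by the authors from Smart-seq2 reads mapped to mm9 with the refFlat annotation. The submitters' processing notes name TopHat2 2.0.11 and Cufflinks 2.2.1. FPKM holds no read counts, so the depth is unknown, and no counting interval or detection limit was given. Values were taken as log2(FPKM + 1), on which a fold change understates the change of low genes. Genes with a mean of at least 1 FPKM in 1 group entered each fit. Differences were tested across all genes with limma 3.58.1 (R 4.3.3) within each experiment, with all its groups sharing 1 estimate of spread, and Benjamini-Hochberg adjustment (threshold 0.05). Single values were compared by permutation tests (scipy 1.17.1, Python 3.11.15). The 7 members and the gene lists were chosen with earlier results of these data known. The named genes are the members, the 3 of highest mean FPKM in each list, the 5 on each side of *Khdc3* and the 5 most correlated with it. The study calls the 2 pools of a group biological replicates, and each base editing library is a separate embryo, so p-values measure the spread between pools or embryos. On simulated data with 200 lowered genes, the test recovered 71.5% at a log2 change of -3 and 98% at -5 in the 8C 4KD design. It recovered 90% and 100% in the 3KD design. The lowered genes were drawn from those of higher level, with independent normal noise and no batch. These shares therefore do not give the power for a single gene such as *Khdc3* in these data. Scaling, filter, pseudocount, sample set, replicate block and left-out libraries were varied.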

Additional observations from a re-analysis of the deposited data

Results flagged for a closer look

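In groups of 8 embryos, 5 of 28 checks of a member in a group found 1 embryo far from the others, where chance gives about 1 in 20. Among 2C sg embryos, replicate 8, whose column bears a 4-cell name, was lowest for *Ooep* (2.71 FPKM, the others 22.1 to 76.7) and for *Nlrp4f* (0.345, the others 10.2 to 59.4). *Khdc3* was lowest in 8C BE replicate 3 of the BE4 set (19 FPKM, the others 141 to 435). *Nlrp4f* was highest in 8C BE replicate 1 (3.10 FPKM, the others 0 to 0.496) and in 8C sg replicate 7 (2.06, the others 0 to 0.299), both of the BE4 set. The causes were not tested.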

How the results depend on the processing

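Differences of *Khdc3* and the other members between 8C and 2C kept direction and call under all 9 alternatives. A lone library of a group was taken to vary like the other groups. Deviations of pools with the same replicate number correlated at 0.278 to 0.513 in 3KD and -0.297 to 0.346 in 4KD. For *Khdc3*, the replicate block brought 3 comparisons under the limma threshold: -4.91 for 3KD with against without *Nr5a2* siRNA (adjusted p = 0.00526), -5.99 for Nr5a2_Nr1h3_Nr2c2_KD (0.0136) and -4.60 for Nr5a2_Rarg_Nr1h3_KD (0.0366). Using only the groups compared did the same for the latter 2 (-5.99, 0.0303, and -4.60, 0.0411), and the eBE set alone, chosen after seeing the data, for 8C BE_sg (-1.53, 0.0143). *Khdc3* minus the others in 8C BE_sg no longer passed with sg alone as control (-2.05, p = 0.0637) or in the BE4 set (-1.61, p = 0.148).

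Leaving out 1 library in turn gave -5.70 to -4.12 for *Khdc3* in 3KD (adjusted p 0.00883 to 0.468), -6.65 to -1.90 in Nr5a2_Rarg_Nr2c2_KD (-6.65 without its replicate 2, adjusted p = 0.0395), -0.39 to 0.30 in Rarg_Nr1h3_Nr2c2_KD, -0.48 to 0.0521 in 2C Nr5a2_KD and -2.03 to 1.02 for the 4KD stage difference, and in 3KD -0.92 to 0.40 for *Nlrp5*, -0.23 to 0.31 for *Tle6*, -0.63 to 1.21 for *Ooep* and -0.13 to 1.57 for *Zbed3*. None of these members passed.

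Signs turned only in differences that had not passed. With a pseudocount of 0.1 the 4KD stage difference of *Khdc3* was 1.07 and *Tle6* in 3KD -0.0048. *Ooep* in 8C BE_sg was -0.0387 with quantile normalization, -0.19 with the block, -0.42 with sg alone, -0.0511 and -0.31 in the eBE and BE4 sets and -0.18 without 4-cell names, and *Padi6* was 0.0688 without the library of lowest FPKM sum. *Khdc3* in 2C BE_sg was -0.0234 with median-ratio scaling, -0.0101 with quantile normalization, -0.0237 with BE alone, -0.15 in the eBE set and -0.0142 without 4-cell names.

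Counts of genes called in 3KD moved from 30 to 262 with the block and to 0 to 2 with 1 pool left out, in 8C Nr5a2_KD from 279 to 6 without NC replicate 2, and in 8C BE_sg from 19 to 4 without 4-cell names and to 34 and 0 within the sets. In 2C BE_sg the count moved from 162 to 500 with the set of column names as a term. Between 8C and 2C, 3753 genes were called higher and 5668 lower. Median-ratio scaling gave 2702 and 7439, with a median over all genes of -0.63.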
